A study of Mus musculus with 20 samples.

Results

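Endothelial cells line the blood vessels of the brain, seal them with tight junctions and carry glucose across, and pericytes wrap the capillaries from outside, share a basement membrane with the endothelium and are kept there by growth factor signals from it. Together with astrocyte endfeet these cells form the blood-brain barrier, and in the striatum, as in other brain regions, they are a minority among neurons and glia. The 10 genes described here are 6 endothelial genes (Cldn5, Pecam1, Flt1, Slc2a1, Kdr and Tek) and 4 pericyte genes (Pdgfrb, Rgs5, Abcc9 and Vtn). They were chosen by name, from what is known of the cell types, with earlier results of these data known. They were matched by Ensembl identifier to 10 of the 39179 genes counted in each mouse. All 10 passed the filter on low values, which kept the 14792 genes that exceeded 1 CPM (a gene's reads scaled to library size) in 3 or more mice.

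RNA-seq counts came from the whole striatum, both sides pooled within each animal, of 20 adult males of generation 17 of a selection experiment. Control mice and High-Active mice, the line bred for high home cage activity, both descend from a cross of 8 inbred strains, and each breeding scheme is represented by 1 line, so that selection and drift cannot be told apart. At about 6.5 months of age, 5 mice of each line were injected with 0.25 mg/kg d-amphetamine and 5 with saline, and the striatum was taken 2 h later. No perfusion of the vessels was described. The 10 Control mice had 8 pairs of parents and the 10 High-Active mice had 5, so some mice were siblings.

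Reads on genes ranged from 32388971 to 53710713 per mouse, and the scarcest member, Kdr, had 211 counts in the mouse where it was lowest. In bulk tissue, fewer cells of a type and less RNA per cell cannot be told apart. The other endothelial markers (20 of 20) and other pericyte markers (14 of 14) passed the filter too, so both cell types were represented in the samples, while markers of tissue beside the striatum varied between mice. Summed choroid plexus markers (8 genes, none at 0 throughout) ran from 22.2 to 915 CPM, with mice 469, 197, 871 and 487 above 500 CPM, and summed hemoglobin and Alas2 (5 genes) ran from 15.1 to 366 CPM. Of the 10 mice labelled High-Active, 9 had 390 to 801 counts of Gm6180, a pseudogene that is high in this line, but High-Active amphetamine mouse 192 had 13, within the Control range of 4 to 15. That mouse's home cage distance (1.36 km per day) was within the range of its line, and it is treated as labelled. Line estimates of Rgs5, Abcc9 and Slc2a1 are also given without it, but separate drug and interaction estimates without it are not.

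Per kilobase of exon, the members spanned a wide range of levels. Slc2a1, the endothelial glucose transporter GLUT1, was highest at 25.9 ± 2.88 RPKM (SD, n = 20), followed by Rgs5 at 18.9 ± 5.40 RPKM, Vtn at 14.4 ± 3.13 RPKM and Cldn5 at 10.7 ± 1.72 RPKM. Flt1 (4.02 ± 0.525 RPKM), Pdgfrb (3.60 ± 0.356 RPKM), Pecam1 (2.32 ± 0.306 RPKM) and Tek (2.06 ± 0.263 RPKM) formed a middle range, and Abcc9 (1.15 ± 0.255 RPKM) and Kdr (1.01 ± 0.233 RPKM) were lowest. Cldn5 was above Flt1, Pdgfrb above Pecam1 and Tek above Abcc9 in 20 of 20 mice. Neighbours in this order whose spreads overlapped most were Flt1 and Pdgfrb (Flt1 higher in 14 of 20 mice), Abcc9 and Kdr (15 of 20) and Rgs5 and Vtn (15 of 20). Among the members, Rgs5 varied most widely in CPM relative to its mean, with a mean of 85.7 CPM and an SD of 24.6 CPM over all mice.

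The RefSeq promoter stretches of Rgs5 and Abcc9 are shown because these were the members that differed between the lines. Promoter entries were matched for 8 of the 10 members. Each stretch ends at the last base before both the RefSeq and the Ensembl gene start, is written 5′ to 3′ on the strand of the gene (GRCm38.p6), and has matches to short motifs in capitals.
Rgs5 (chr1:169655251-169655500, plus strand): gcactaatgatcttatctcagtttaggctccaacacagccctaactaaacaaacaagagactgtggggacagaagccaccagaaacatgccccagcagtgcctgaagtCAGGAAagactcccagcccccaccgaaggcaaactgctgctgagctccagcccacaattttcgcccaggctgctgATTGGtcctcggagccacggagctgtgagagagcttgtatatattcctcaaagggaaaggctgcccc
Abcc9 (chr6:142702316-142702524, minus strand): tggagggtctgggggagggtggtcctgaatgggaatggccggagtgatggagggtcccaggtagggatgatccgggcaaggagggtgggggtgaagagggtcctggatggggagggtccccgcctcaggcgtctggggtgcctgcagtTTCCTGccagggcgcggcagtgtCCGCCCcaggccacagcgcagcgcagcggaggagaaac

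The motifs were searched on both strands. The general promoter motifs were the TATA box (searched as TATAAA), the CCAAT box (searched by those letters) and the GC box, written GGGCGG. A first and a second motif of the ETS family, to which the endothelial factor ERG belongs, were CCGGAA for the first and, for the second, CAGGAA. The forkhead motif was written GTAAACA, and the core of the hypoxia response element was written ACGTG. None of these contains another. The Rgs5 stretch of 250 bases held CAGGAA, present in 25.7% of all 32851 promoter stretches of that length, and CCAAT on the minus strand, present in 33.9%. The Abcc9 stretch of 209 bases held CAGGAA on the opposite strand, present in 21.8% of promoter stretches of that length, and GGGCGG on the opposite strand, present in 26.5%. The TATA box, the first ETS motif, the forkhead motif and the hypoxia core had no match in these windows. The Rgs5 stretch was 53.6% G and C and the Abcc9 stretch 68.4%, and a matching motif is a description of letters only.

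The line comparison asks which genes differ in the striatum of mice bred for high activity. The pericyte genes Rgs5 and Abcc9 were higher in High-Active mice, by 1.55-fold and 1.30-fold, and no endothelial member passed the test. In all, 2 of the 10 members were called at a false discovery rate (FDR, adjusted p) under 0.1 in edgeR's quasi-likelihood test, beside 14.5% of all genes tested, and with so few members that count is not set apart from the background. Genes called higher were 7.63% of those tested and genes called lower 6.9%.

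Rgs5 encodes a regulator of G protein signalling that shortens the action of vasoactive receptors in pericytes (ENSMUSG00000026678, chr1:169655501-169695813, GRCm38). Its CPM in Control saline mice was 52.9, 66.7, 78.2, 73.4 and 92.2, and in Control amphetamine mice 92.8, 51.1, 52.5, 59.6 and 54.1. In High-Active saline mice it was 102, 88.0, 98.4, 112 and 116, and in High-Active amphetamine mice 83.2, 106, 82.9, 127 and 125. Every High-Active mouse lay above the Control median, 7 of 10 lay above every Control mouse, and 8 of 10 Control mice lay below every High-Active mouse. The lines overlapped only through Control saline mouse 883 and Control amphetamine mouse 369. Genes without any overlap between the lines were 0.264% of those tested, and Rgs5 was not among them. The mean was 67.3 ± 16.2 CPM in Control mice and 104.1 ± 16.2 CPM in High-Active mice (SD, n = 10 each), a log2 fold change of 0.63 (SE 0.12, adjusted p = 0.00459, edgeR), which ranked 150 among all genes by p. A two-sided permutation test of mean log2 CPM gave p = 0.00022, and with mice of the same parents averaged an exact permutation test gave p = 0.0124.

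Abcc9 encodes SUR2, the regulatory subunit of the ATP-sensitive potassium channel of pericytes and vascular muscle (ENSMUSG00000030249, chr6:142587862-142702315). Its CPM in Control saline mice was 6.85, 10.2, 9.13, 9.65 and 8.25, and in Control amphetamine mice 9.00, 7.42, 6.73, 9.65 and 6.88. In High-Active saline mice it was 9.95, 14.5, 9.43, 9.45 and 10.2, and in High-Active amphetamine mice 9.22, 10.4, 12.4, 9.20 and 14.3. All 10 High-Active mice were above the Control median and 4 were above every Control mouse, so the lines overlapped more than for Rgs5. The mean was 8.38 ± 1.33 CPM in Control mice and 10.9 ± 2.08 CPM in High-Active mice (SD, n = 10 each), with a log2 fold change of 0.38 (SE 0.11, adjusted p = 0.0401, edgeR). The permutation test of mean log2 CPM gave p = 0.00254, and with mice of the same parents averaged the exact permutation test gave p = 0.0132. An antisense transcript, 5330439B14Rik, shares 158 bp of exon with Abcc9, and its reads could not be separated where strand was not used in counting.

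**Figure D1:**
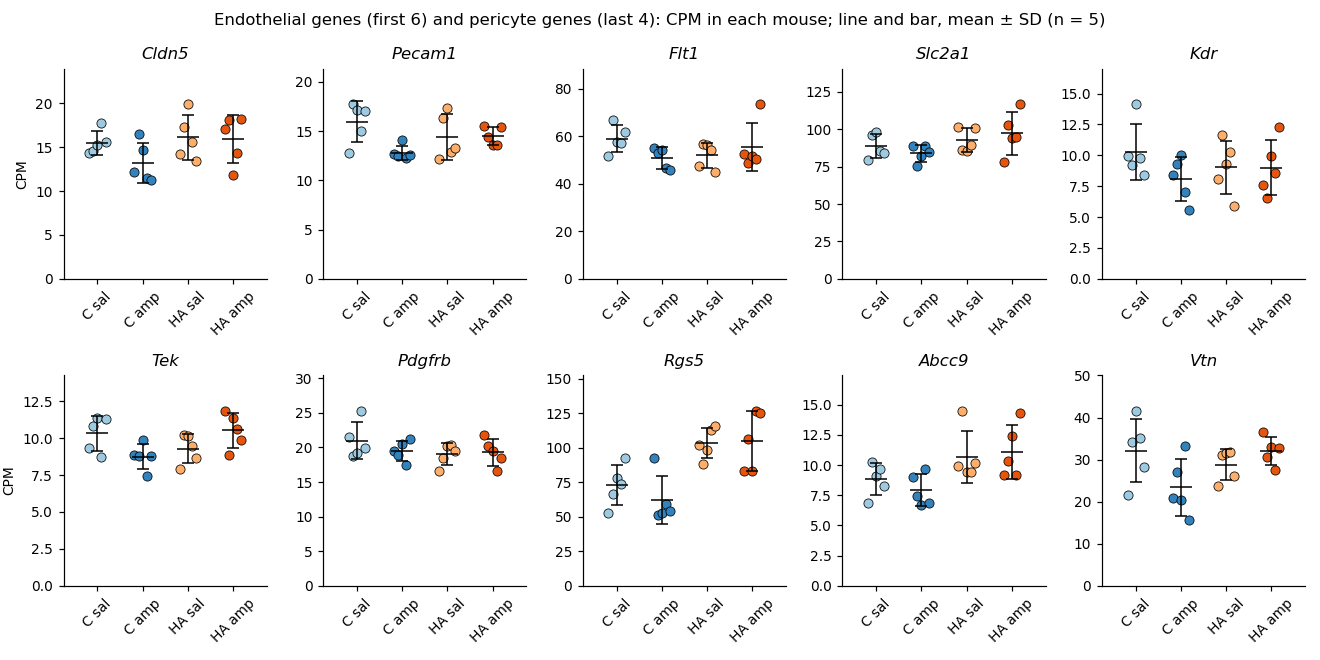
CPM of each of the 10 members (vertical axis, from 0) in every mouse, by group (C, Control; HA, High-Active; sal, saline; amp, amphetamine); points are mice, and the line and bar are the mean and SD of 5 mice. High-Active mice sit at 82.9 CPM or more of Rgs5, where 8 of the 10 Control mice are lower, while the 6 endothelial genes overlap between all groups.

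The call for Rgs5 held in each fit that left out 1 mouse (log2 fold change 0.58 to 0.73), and without mouse 192 it was 0.67 (adjusted p = 0.00377, edgeR). Abcc9 was also called in each of these 20 fits (0.31 to 0.42), and without mouse 192 it was 0.41 (adjusted p = 0.0293). Abcc9 was not called when counts were summed over mice of the same parents (adjusted p = 0.138) or without the 4 mice with high choroid plexus markers (adjusted p = 0.119), whereas Rgs5 was called in both (adjusted p = 0.0925 and 0.0297).

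Markers of other tissue moved with line beside these results. Summed cortical neuron markers (8 genes, none at 0 throughout) were 267 to 843 CPM in Control mice and 123 to 959 CPM in High-Active mice, with Tbr1, Slc17a7 and Neurod2 called lower. Of these 8 genes, 0 had a line estimate above 0 and 7 had an unadjusted p under 0.05 in edgeR's test (median log2 fold change -0.74). Summed oligodendrocyte markers (8 genes, none at 0 throughout) were 4064 to 6787 CPM in Control mice and 5646 to 7434 CPM in High-Active mice, with Mbp and Mobp called higher. Blood, astrocyte and microglia markers had calls as well. Summed blood markers (5 genes, none at 0 throughout) were 15.1 to 189 CPM in Control mice and 16.8 to 366 CPM in High-Active mice, with all 5 estimates above 0 and a hemoglobin gene, Hba-a2, called higher (log2 fold change 2.59, adjusted p = 0.0397, edgeR). Of 8 astrocyte markers (summed 4208 to 5010 CPM in Control mice and 4197 to 4761 CPM in High-Active mice), Aldh1l1, Gja1 and Aldoc were called higher and S100b and Slc1a2 lower. Of 8 microglia markers (summed 268 to 328 and 255 to 320 CPM), Itgam was called higher and Aif1 and Csf1r lower. Choroid plexus markers (8 genes) and striatal neuron markers (8 genes) had 0 calls, with 0 and 1 at an unadjusted p under 0.05, and their most abundant genes were Ttr at 1.15 (adjusted p = 0.555) and Ppp1r1b at -0.15 (adjusted p = 0.301). The part of the astrocyte and microglia differences in the members' values was not tested. With scores of the cortex and oligodendrocyte lists as covariates, the log2 fold change of Rgs5 was 0.59 (adjusted p = 0.0313, edgeR) and that of Abcc9 0.28 (adjusted p = 0.351). With choroid plexus and blood scores as covariates, it was 0.61 for Rgs5 (adjusted p = 0.0225) and 0.26 for Abcc9 (adjusted p = 0.182).

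Pdgfrb and Vtn, the remaining pericyte members, did not pass the test for line. Pdgfrb, the receptor through which endothelial PDGF-B recruits pericytes and the most widely used marker of the cell (ENSMUSG00000024620, chr18:61045150-61085061), was 20.2 ± 2.17 CPM in Control mice and 19.2 ± 1.65 CPM in High-Active mice (SD, n = 10 each). Its log2 fold change was -0.08 (95% interval -0.20 to 0.04, adjusted p = 0.462, edgeR). Vtn, vitronectin, a matrix protein made by brain pericytes (ENSMUSG00000017344, chr11:78499091-78502324), was 27.8 ± 8.20 CPM in Control mice and 30.5 ± 3.74 CPM in High-Active mice, with a log2 fold change of 0.15 (adjusted p = 0.478). Control mice ranged from 15.7 to 41.7 CPM of Vtn and enclosed all High-Active mice, at 23.6 to 36.6 CPM.

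Among the endothelial members the differences between the lines were small. Slc2a1 (ENSMUSG00000028645, chr4:119108711-119137983) was 86.3 ± 7.00 CPM in Control mice and 95.0 ± 11.1 CPM in High-Active mice (SD, n = 10 each). Its log2 fold change of 0.14 did not pass the adjusted threshold (95% interval 0.02 to 0.26, adjusted p = 0.165, edgeR), but it did without mouse 192 (0.17, adjusted p = 0.0563). Slc2a1 shares 105 bp of exon with the antisense gene Gm12868, which had 25 counts over all 20 mice. Cldn5, the tight junction claudin of brain endothelium (ENSMUSG00000041378, chr16:18776847-18778262), was 14.3 ± 2.14 CPM in Control mice and 16.0 ± 2.53 CPM in High-Active mice, with a log2 fold change of 0.17 (95% interval -0.02 to 0.35, adjusted p = 0.279).

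The VEGF receptors and the adhesion and angiopoietin receptor genes had estimates close to 0. Flt1, the decoy-like VEGF receptor 1 (ENSMUSG00000029648, chr5:147561604-147726011), had a log2 fold change of -0.03 (95% interval -0.17 to 0.11, adjusted p = 0.834, edgeR). Kdr, the main signalling VEGF receptor 2 (ENSMUSG00000062960, chr5:75932827-75978458), had one of -0.01 with a wider interval of -0.29 to 0.26. Tek, the angiopoietin receptor Tie2 (ENSMUSG00000006386, chr4:94739289-94874976), stood at 0.06 (-0.08 to 0.20), and Pecam1, the junctional adhesion molecule CD31 (ENSMUSG00000020717, chr11:106654217-106750628), at 0.02 (-0.12 to 0.16).

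**Figure D2:**
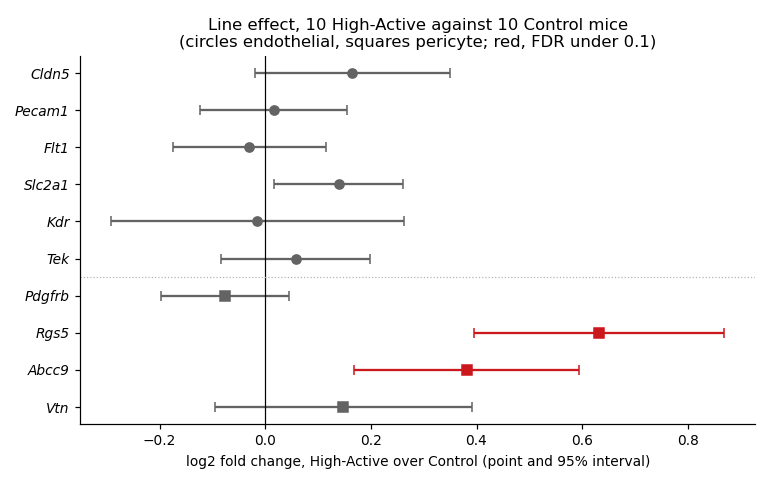
Log2 fold change of High-Active over Control (horizontal axis) with its 95% interval for each member, from the fit over all 20 mice; circles are endothelial genes, squares pericyte genes, red an FDR under 0.1. Rgs5 at 0.63 and Abcc9 at 0.38 are the red points, and Pdgfrb lies at -0.08.

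Within treatments the line difference of Rgs5 kept its direction. Between saline mice its log2 fold change was 0.51 (adjusted p = 0.134, edgeR), and 0 of 10 members were called beside 3.74% of all genes. Between amphetamine mice it was 0.76 (adjusted p = 0.0553), and Rgs5 was the 1 member called, beside 1.3% of all genes. Fitting only the 2 groups compared exchanged these calls, with Rgs5 called between saline mice (adjusted p = 0.0838) and not between amphetamine mice (adjusted p = 0.138). The exact permutation test of mean log2 CPM gave p = 0.0159 for Rgs5 in saline mice and p = 0.0238 in amphetamine mice. Among the other pericyte members, Abcc9 was at 0.28 in saline mice (adjusted p = 0.358) and 0.48 in amphetamine mice (adjusted p = 0.188). Vtn was at -0.16 in saline mice and 0.45 in amphetamine mice (adjusted p = 0.682 and 0.282).

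Other known genes of the same cells were read beside the 14.5% of all tested genes called for line. Of 14 other pericyte markers, 0 were called for line in edgeR's quasi-likelihood test (2 at an unadjusted p under 0.05), with a median log2 fold change of -0.0022 against a median of -0.00093 over all genes tested. Kcnj8, the channel pore that pairs with the Abcc9 product, was at 0.11 (adjusted p = 0.585, edgeR), and Cspg4, the proteoglycan NG2 and the most abundant of the list, was at 0.21 (adjusted p = 0.152). Of the 20 other endothelial markers, 2 were called, both lower in High-Active mice. Nos3, endothelial nitric oxide synthase, fell from 7.47 ± 1.10 to 6.04 ± 0.710 CPM (log2 fold change -0.30, adjusted p = 0.0233), and Esam, a junction protein, fell from 9.73 ± 0.898 to 8.51 ± 0.902 CPM (-0.20, adjusted p = 0.0509). The median over these 20 genes was -0.01.

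Barrier transporters and junction genes (16 tested), perivascular fibroblast and meningeal genes (10) and basement membrane genes (12) had 0 calls for line. In edgeR's test 14.5% of all genes were called, and 2, 0 and 2 genes of these lists were at an unadjusted p under 0.05. Their most abundant genes were Bsg, basigin, at a log2 fold change of 0.08 (adjusted p = 0.243, edgeR), Ptgds, prostaglandin D synthase, at 0.40 (adjusted p = 0.404), and Agrn, agrin, at 0.04 (adjusted p = 0.535). Of 7 vascular smooth muscle genes tested, 2 were called, both lower, and 4 had an unadjusted p under 0.05. Only 1 estimate was above 0, and the median was -0.25. Acta2, smooth muscle actin, fell from 6.10 ± 1.74 to 4.31 ± 0.914 CPM (-0.50, adjusted p = 0.055), and Tagln, the actin-binding transgelin, fell from 5.45 ± 0.929 to 4.22 ± 0.670 CPM (-0.37, adjusted p = 0.0496). Summed smooth muscle markers (8 genes) were 35.1 to 51.5 CPM in Control mice and 27.0 to 39.5 CPM in High-Active mice.

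Growth factors, receptors and pathways that act on the vessel wall had 1 or 2 calls in each list, beside the 14.5% of all genes called. Of 12 ligands, 1 was called. Apln, apelin, which acts on the endothelial receptor Aplnr, rose from 14.8 ± 2.95 to 21.5 ± 4.17 CPM (log2 fold change 0.54, adjusted p = 0.0181, edgeR). Aplnr itself had a mean of 0.21 CPM, did not pass the filter on low values and was not tested. Of 10 other receptors tested, Acvrl1, the endothelial BMP receptor ALK1, was called and fell from 25.1 ± 5.94 to 16.5 ± 4.37 CPM (-0.60, adjusted p = 0.0199). In the Wnt pathway that maintains the barrier (11 tested), the ligand Ndp rose from 6.60 ± 0.718 to 7.39 ± 0.572 CPM (0.17, adjusted p = 0.0992) and the target Apcdd1 fell from 16.6 ± 3.53 to 13.3 ± 2.07 CPM (-0.32, adjusted p = 0.0724). Of 9 hypoxia-responsive genes tested, Ddit4, an mTOR inhibitor, was called and rose from 24.6 ± 2.28 to 29.8 ± 3.20 CPM (0.27, adjusted p = 0.0165). Several of these genes are also made by neurons or glia, which whole striatum does not separate.

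**Figure D3:**
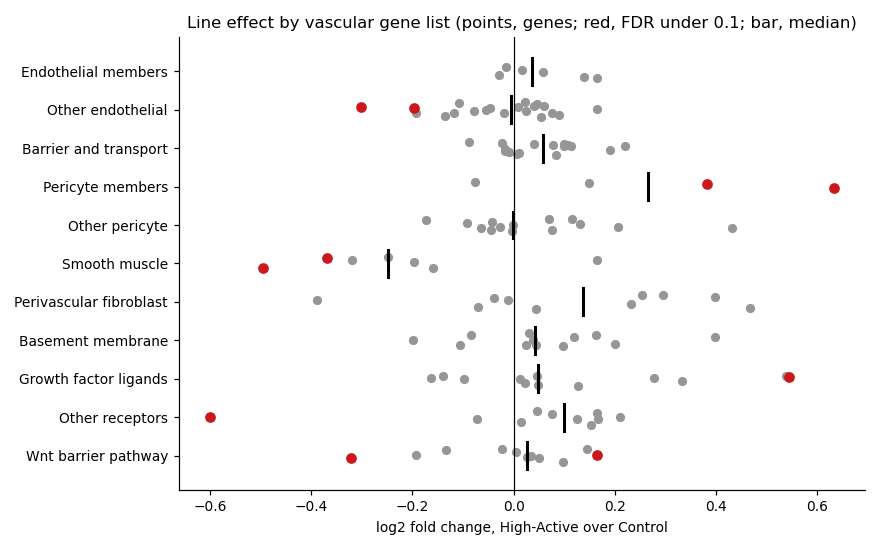
Log2 fold change of High-Active over Control (horizontal axis) for every tested gene of 11 vascular lists; each point is a gene, red marks an FDR under 0.1 and the bar is the list median. The called pericyte members Rgs5 and Abcc9 lie to the right, the other pericyte genes centre on 0, and smooth muscle genes have a median of -0.25. The perivascular fibroblast list also covers the meninges.

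The members' neighbours on the chromosome, which may share a haplotype with them, were counted too. Within 1000000 bp of Rgs5, 2 of 9 tested genes were called for line (Ccdc190 and Rgs4), 1 of them higher, and within 1000000 bp of Abcc9, 1 of 11 was called (Etnk1, lower), beside the 14.5% of all genes. Near members that were not called, the share ran from 4.5% for Cldn5 to 26.1% for Pdgfrb (6 of 23).

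The drug comparison asks what a low dose of amphetamine changed within 2 h. No member was called, and no gene was (0% of those tested), in edgeR's quasi-likelihood test over both lines. At an unadjusted p under 0.05 stood 1 member, Pecam1 (log2 fold change -0.15, adjusted p = 0.393), beside 12.5% of all genes. All 10 estimates were below 0, as were 53.0% of those of all genes, and the members are not independent of each other. Within the families that had both treatments, 7 of the estimates were above 0, and with cortex and oligodendrocyte scores as covariates 6 were. Summed cortical neuron markers were 123 to 813 CPM in saline mice (mean 352) and 196 to 959 CPM in amphetamine mice (mean 632). All 8 of their drug estimates were above 0 and at an unadjusted p under 0.05 in edgeR's test. Their median log2 fold change was 0.99, and 0 were called. DESeq2 called 0 members. Rgs5 was at -0.10 (95% interval -0.34 to 0.13) and Slc2a1 at -0.01 (-0.13 to 0.12).

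The estimates of the amphetamine response were lower in Control than in High-Active mice for all members. In Control mice all 10 were below 0 after amphetamine, as were 51.0% of all genes, and no gene was called (0%). At an unadjusted p under 0.05 stood 3 members, Pecam1, Vtn and Tek, beside 6.35% of all genes. In High-Active mice no gene was called (0%), 0 of 10 members had an unadjusted p under 0.05 beside 8.43% of all genes, and the estimates ran from -0.02 for Cldn5 to 0.18 for Tek.

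The line by drug interaction, the response in High-Active mice minus that in Control mice, was above 0 for all 10 members, where 49.5% of all genes were below 0. None was called, nor was any gene (0%), and the adjusted p was 1 for every member. DESeq2 called 0 members, and the estimate was above 0 for each member in every alternative fit that was run. At an unadjusted p under 0.05 were Tek, Vtn, Pecam1 and Flt1, beside 2.97% of all genes. The line and treatment comparisons share the same 20 mice, so the interaction is not independent of the separate responses.

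Tek had the largest ratio of interaction to error. Its CPM was 9.30, 10.8, 11.4, 8.76 and 11.3 in Control saline mice and 8.88, 8.79, 9.87, 7.47 and 8.78 in Control amphetamine mice. In High-Active saline mice it was 7.92, 10.2, 10.1, 9.50 and 8.65, and in High-Active amphetamine mice 11.9, 8.88, 11.4, 10.6 and 9.91. The mean was lower with amphetamine in Control mice and higher in High-Active mice, and the groups overlapped in each line. The highest value among High-Active amphetamine mice, 11.9 CPM, was that of mouse 192, which had the Control-like Gm6180 count. The interaction was 0.42 on the log2 scale (SE 0.14, unadjusted p = 0.0084, adjusted p = 1, edgeR). Over the 20 fits that left out 1 mouse it was 0.37 to 0.48. An exact permutation of treatment within each line gave p = 0.00976. Its null is no drug effect in either line, not an equal effect in both, and it leaves siblings out of account.

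Vtn showed a similar arrangement of group means, whereas Pecam1 was lower with amphetamine in Control mice and about level in High-Active mice (log2 fold change 0.01). Vtn was 32.2 ± 7.58 CPM in Control saline mice and 23.4 ± 6.81 CPM in Control amphetamine mice, against 28.8 ± 3.70 and 32.1 ± 3.32 CPM in High-Active saline and amphetamine mice (SD, n = 5 each). Its interaction was 0.61 (SE 0.25, p = 0.0333 by the same exact permutation within each line, with the same limits). Pecam1 was 15.9 ± 2.08 CPM in Control saline mice and 12.8 ± 0.714 CPM in Control amphetamine mice, where 4 of 5 amphetamine mice lay below every saline mouse, against 14.4 ± 2.33 and 14.5 ± 0.912 CPM in High-Active mice. The response of Pecam1 in Control mice was -0.32 (SE 0.10, adjusted p = 0.694, edgeR), and the exact permutation test gave p = 0.0159. Mouse 192 was again the highest High-Active amphetamine mouse for Vtn (36.6 CPM) and Pecam1 (15.5 CPM). Over the 20 fits that left out 1 mouse, the interaction was 0.50 to 0.77 for Vtn and 0.27 to 0.41 for Pecam1.

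Flt1 was 59.0 ± 5.74 CPM in Control saline mice and 50.9 ± 4.52 CPM in Control amphetamine mice (SD, n = 5 each). In High-Active mice it was 51.9 ± 5.34 CPM with saline and 55.5 ± 10.3 CPM with amphetamine, where mouse 905 alone reached 73.7 CPM. That mouse also had the highest summed blood markers, 366 CPM, and their part in its Flt1 value was not tested. Rgs5 (0.25, SE 0.24) and Abcc9 (0.20, SE 0.22) had interactions about as large as their errors (adjusted p = 1, edgeR).

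The other vascular lists leaned to the same side to different degrees. The interaction was above 0 for 19 of 20 other endothelial markers (median 0.28), 12 of 14 other pericyte markers (median 0.26), 10 of 10 perivascular fibroblast genes (median 0.61) and 6 of 7 smooth muscle genes (median 0.24), with 0 called in each list (3, 3, 0 and 1 at an unadjusted p under 0.05) and a median of 0.0012 over all genes. Barrier and transport genes were above 0 in 14 of 16 cases (median 0.11), Wnt barrier genes in 9 of 11 (0.20) and ligands in 9 of 12 (0.15). The lean was not seen in every list, since basement membrane genes were above 0 in 8 of 12 cases (median 0.07), other receptors in 5 of 10 (0.03) and hypoxia-responsive genes in 5 of 9 (0.06). These lists are not separate. Tie1, Ptprb and Eng count among both the other endothelial markers and the other receptors, and Sox17 among both the former and the Wnt barrier genes, each above 0. The summed markers of the perivascular fibroblast list, which also covers the meninges, were 185 to 598 CPM in Control saline mice and 142 to 271 CPM in Control amphetamine mice. They were 174 to 534 and 159 to 552 CPM in High-Active saline and amphetamine mice. Ptgds alone, with a mean of 245.5 CPM over all mice, made up most of that sum, so it does not stand for the vessel wall only. Summed blood markers (5 genes) were 28.1 to 189 CPM in Control saline mice and 15.1 to 49.9 CPM in Control amphetamine mice, and cortical markers had a median interaction of 0.94. The part of these markers in the members' estimates was not tested.

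**Figure D4:**
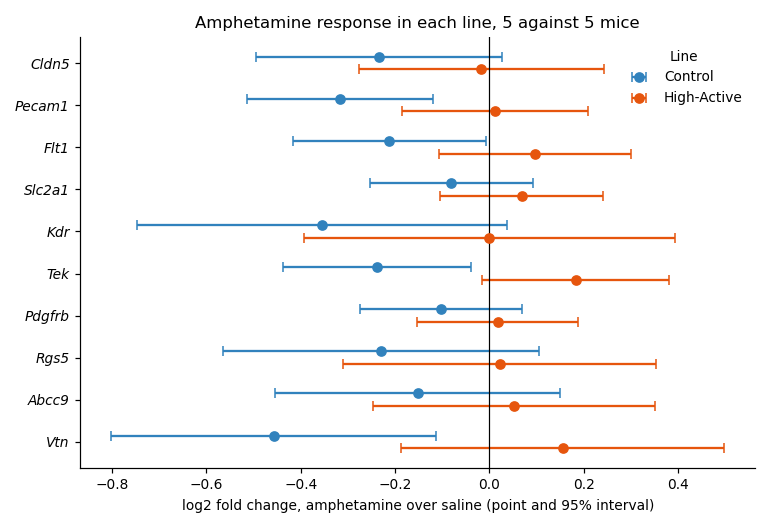
Log2 fold change of amphetamine over saline (horizontal axis) with its 95% interval for each member, in Control mice (blue) and High-Active mice (orange), 5 against 5 mice each. All 10 Control points lie below 0, down to -0.46 for Vtn, the High-Active points lie between -0.02 and 0.18, and no point was called.

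Members were also compared across mice after subtracting group means from log2 CPM, which asks whether they move together beyond line and drug. Of the 45 pairs, 31 had a positive Pearson's r, with a median of 0.21. The 15 endothelial pairs had a median of 0.34 and 12 were positive, whereas the 6 pericyte pairs had a median of -0.04 and 3 were positive. The negative endothelial pairs were those of Slc2a1 with Cldn5 (r = -0.25), Pecam1 (-0.03) and Tek (-0.38). Slc2a1 had r = 0.21 with Flt1 and 0.04 with Kdr, so it did not follow the other endothelial members closely. The closest pairs were Pecam1 with Tek (r = 0.64, Spearman's rho = 0.62), Flt1 with Kdr (r = 0.63, rho = 0.60) and Pecam1 with Flt1 (r = 0.60, rho = 0.69). With Benjamini-Hochberg adjustment over all 45 pairs, permutation tests over 20 mice gave adjusted p = 0.063, 0.063 and 0.0677 for these r. For these rho the permutation tests gave adjusted p = 0.0927, 0.105 and 0.0423. The permutation treated the values of all mice as exchangeable, although group means had been subtracted and some mice were siblings. The p-values of pairs, here and in the next paragraph, are therefore likely too small. None, 0.0423 included, is read as a firm result. After the 2 mice with the most extreme values of the first gene were left out, r was 0.61, 0.65 and 0.54.

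Of the pairs that include a pericyte gene, Rgs5 with Slc2a1 had the highest value, r = 0.53 and rho = 0.52 over 20 mice (permutation adjusted p = 0.149 and 0.127), and 0.41 without the 2 farthest mice. Abcc9 with Vtn had r = 0.50 and rho = 0.44 (permutation adjusted p = 0.149 and 0.282), and 0.56 without the 2 farthest mice. The lowest value was that of Slc2a1 with Pdgfrb, r = -0.46 and rho = -0.47 (permutation adjusted p = 0.18 and 0.209), and -0.36 without the 2 farthest mice.

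**Figure D5:**
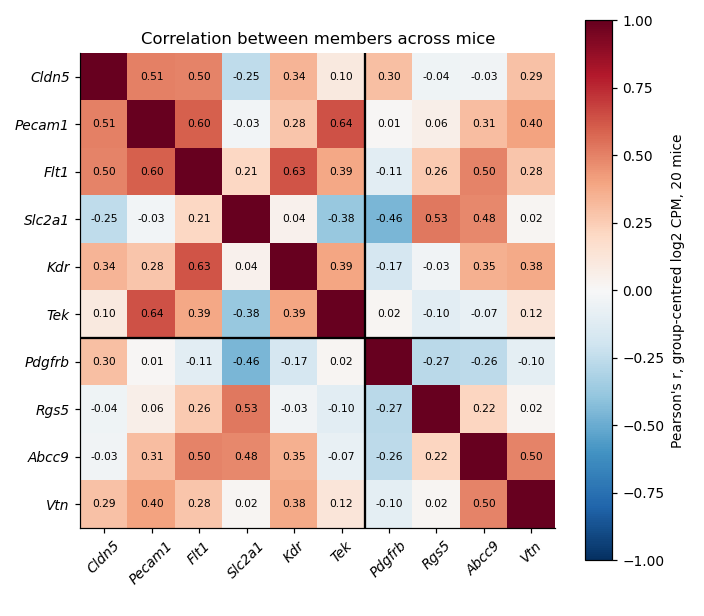
Pearson's r between each pair of members over 20 mice, from log2 CPM with the group means subtracted; the colour scale runs from -1 to 1 and black lines part the 6 endothelial from the 4 pericyte genes. The endothelial block is mostly positive, with a median of 0.34, and its negative values are all pairs of Slc2a1. The pericyte block has a median of -0.04.

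The genes whose pattern was most like the mean of the endothelial members, over 20 mice and with group means subtracted, began with Eng, the endothelial TGF-beta co-receptor endoglin (r = 0.85), and included Itga6, a laminin-binding integrin (r = 0.79), and Krit1, a vascular malformation gene (r = 0.77). The others of the 10 were Vps37a, Chd2, Dhx15, Dlx6os1, Snrnp48, Phip and Ctla2a, with r from 0.76 to 0.84. Vascular genes were counted here from the other endothelial, barrier and transport, other pericyte, smooth muscle, basement membrane and other receptor lists only. These lists hold 76 tested genes, 0.514% of the genes ranked, and 2 of the 100 most alike of 14782 genes were among them. For the pericyte members the 10 were Mcmdc2, Pde3a, Zfp866, Ucp3, Tbc1d12, 9530059O14Rik, Fyb, Trim13, Rbms3 and Lamc1, with r from 0.75 to 0.80. Of the 100 most alike, 4 were in the same lists. Pde3a encodes a phosphodiesterase of vascular muscle and Lamc1 a laminin chain of the basement membrane. Among the marker lists compared with the pericyte mean, oligodendrocyte markers had the highest r (0.50) and cortical markers the lowest (-0.48). For the endothelial mean, striatal neuron markers had the highest (0.48) and smooth muscle markers the lowest (-0.51). The part of tissue composition in these patterns was not tested. The r values share libraries and are the highest of many, and are given as a description.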

How the data were processed

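Per the labels and the study's methods, striatal RNA was sequenced as stranded libraries, pooled over 5 lanes, and aligned to GRCm38 with TopHat2 2.0.10 and Bowtie2 2.1.0, and the authors counted reads per Ensembl 75 gene with HTSeq 0.6.1. The strand setting of the counting is not given in the sources used here. The deposited values are raw read counts per gene, not normalized. Lines for reads not on a gene were left out of library sizes.

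Samples were grouped by the labelled line and treatment (5 mice in each of 4 groups). Genes with more than 1 CPM in at least 3 mice were kept, counts were scaled by TMM, and edgeR 4.0.16 (R 4.3.3) fitted 4 group means with the quasi-likelihood test and Benjamini-Hochberg adjustment over all 14792 genes (threshold 0.1). CPM and log2 CPM (prior count 2) use TMM library sizes, and RPKM is CPM divided by exon length from GENCODE. Intervals are 1.96 standard errors either side. Single genes were tested with two-sided permutation tests on log2 CPM (100000 resamples, or exact where a group held under 10 values), and correlations with 100000 resamples. Only the line contrast of the quasi-likelihood test was tried on simulated data, with independent mice and a single dispersion for all genes. The drug and interaction contrasts, the permutation tests and the correlations were not simulated. Alternatives included DESeq2 1.42.0, limma 3.58.1 with parents as a random block, other filters and scalings, covariates from marker lists, and leaving out mice.

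The members and gene lists were chosen with earlier results of these data known. Named genes are the members, the genes of each list past the threshold (at most 6) or else its most abundant gene, and the 10 most alike in pattern. Kcnj8 was named outside this rule, as was each neighbour on the chromosome, after its value was seen. Animal replicates are separate mice, some of them siblings. Reads without molecular identifiers are not independent molecules.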

Additional observations from a re-analysis of the deposited data

Results flagged for a closer look

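In 4 of the 40 combinations of member and group, 1 mouse stood far from the other 4 by Dixon's gap criterion, where chance flags about 1 in 20 groups. Pecam1 was 14.1 CPM in Control amphetamine mouse 409, above 12.3 to 12.7 CPM in the other mice of that group. Flt1 was 73.7 CPM in High-Active amphetamine mouse 905, above the other mice at 48.9 to 52.6 CPM. Rgs5 was 92.8 CPM in Control amphetamine mouse 369, where the other 4 were at 51.1 to 59.6 CPM, and this mouse lay within the High-Active range. Abcc9 was 14.5 CPM in High-Active saline mouse 483, where the other 4 were at 9.43 to 10.2 CPM.

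The amphetamine response differed between the lines at an unadjusted p under 0.05 for 4 members, by 0.33 for Pecam1, 0.31 for Flt1, 0.42 for Tek and 0.61 for Vtn on the log2 scale, each higher in High-Active mice. The adjusted p of each was 1 in edgeR's quasi-likelihood test over all genes.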

How the results depend on the processing

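The 2 calls for line, Rgs5 and Abcc9, were made under DESeq2, the likelihood-ratio test, RLE scaling, both other filters, limma with parents as a random block, and without mice 192 and 905. The count was 1, Rgs5, with the counts of siblings added together, with cortex and oligodendrocyte covariates, with choroid plexus and blood covariates and without the 4 mice with high choroid plexus markers (the last pair and the removal of mice 192 and 905 were chosen after seeing the data). It was 2 to 3 over the fits that left out 1 mouse, with Slc2a1 added without mouse 192. Fitting only the 2 groups compared moved the count for line from 0 to 1 in saline mice and from 1 to 0 in amphetamine mice. Leaving out 1 mouse gave 0 to 1 in each, with 1 in saline mice without mouse 369, and 0 in amphetamine mice without mouse 407, 409, 454, 457, 415, 872 or 905. Summing counts reduces the number of samples, and the cause of the other moves was not tested.

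No reversed estimate was called. For line, Pecam1 was -0.0148 with cortex and oligodendrocyte covariates and -0.0152 without mice 192 and 905, and Kdr was 0.0347 with those covariates and 0.0293 without the 4 choroid plexus mice. For drug within families that had both treatments, Cldn5 was 0.0113, Flt1 0.0326, Slc2a1 0.0372, Kdr 0.0521, Tek 0.0751, Rgs5 0.0148 and Vtn 0.0195. With cortex and oligodendrocyte covariates, the drug estimates were 0.0632 for Cldn5, 0.0349 for Flt1, 0.0461 for Kdr, 0.012 for Pdgfrb, 0.082 for Abcc9 and 0.0256 for Vtn. With choroid plexus and blood covariates they were 0.056 for Slc2a1 and 0.0353 for Abcc9, and without the 4 mice 0.0339 for Slc2a1. Leaving out 1 mouse gave -0.0234 to 0.0428 for Pecam1 and -0.0837 to 0.0563 for Kdr (line), and -0.0437 to 0.0336 for Slc2a1 and -0.104 to 0.0176 for Abcc9 (drug).

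Each member had at least 211 counts in every mouse, and counting error was not separated from the spread between the 5 mice of a group, which limits the interaction. Replicates are numbered by animal and share no number between groups, so treatments were paired only through the families that had both.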
